A study of Mus musculus with 180 samples.

Results

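AZD-2014, an ATP-competitive inhibitor of the kinase mTOR, was 1 of 58 clinical kinase inhibitors added to mouse bone marrow-derived macrophages before stimulation with lipopolysaccharide (LPS), the bacterial cell wall component sensed by the receptor TLR4. The members described here are the 3 samples whose treatment label names AZD-2014, out of 180 samples in the series, and they were set against the 6 samples that received only the solvent dimethyl sulfoxide (DMSO). The DMSO samples came as 2 sets of 3. All 9 samples were wild-type macrophages grown from the marrow of young male C57BL/6 mice, were exposed to inhibitor or solvent for 1 h, and then received LPS at 10 ng/ml for 2 h with no unstimulated control among them, so every value describes cells in the early LPS response. Polyadenylated RNA was sequenced from 3 biological replicates per inhibitor, and 12714 of the 45070 genes in the table had a mean normalized value of 10 or more over the 180 samples and were tested. In the study the inhibitor was assigned to mTOR but its dose was set from its binding to another protein, Pfkp, so the extent of mTOR inhibition reached in these cells is not given by the RNA.

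mTOR is the catalytic subunit of a pair of protein complexes. Complex 1, built around Rptor, promotes protein and lipid synthesis and holds back autophagy when amino acids and growth factors are present. Complex 2, built around Rictor, phosphorylates Akt, which keeps FOXO transcription factors out of the nucleus. Transcripts of ribosomal proteins and translation factors carry a terminal oligopyrimidine start that makes their translation depend on complex 1. In macrophages the pathway also bears on glycolysis through Hif1a and on the balance of cytokines made after TLR4 engagement.

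The normalized values summed to between 9559895 and 10769656 in the AZD-2014 samples and to between 9481416 and 11094387 in the DMSO samples. From the spacing of the values, an estimated 10.4 to 15.5 M reads per sample were counted over the genes of the table. All 16 macrophage markers in the table were above a normalized value of 10 in at least one of the 9 samples. Their summed value ranged from 219565 to 331283 with AZD-2014 and from 153441 to 338639 with DMSO. Among them the receptor gene Csf1r rose slightly (log2 difference 0.21, limma adjusted p = 0.00231, but 0.149 with these 9 samples fitted alone), and the myeloid factor gene Spi1 fell (-0.71, adjusted p = 0.00268, but 0.0567 without the first AZD-2014 replicate). Of the markers of other cells, all 7 T and NK cell markers and all 7 erythroid and mast cell markers stayed under 10 in the 9 samples. The 10 neutrophil and precursor markers summed to 463 to 858 with AZD-2014 and 303 to 1021 with DMSO, and none of the 8 tested passed. Dendritic cell markers summed to 43 to 64 with AZD-2014 and 62 to 96 with DMSO (exact permutation p = 0.0476, two-sided, 0.286 adjusted over 12 single values), and the 1 of them tested, Xcr1, was lower (-0.69, adjusted p = 0.0479), a call lost when any of 5 of the 9 samples was left out. Fibroblast markers summed to 35 to 54 and 28 to 180, and B cell markers to at most 21 in any sample. In bulk RNA fewer cells of a type and less RNA per cell cannot be told apart.

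Against DMSO, 771 genes were higher with AZD-2014 (6.06% of those tested) and 1719 were lower (13.5%), 19.6% together. The counts called in each gene list below are to be read against the 6.06% and 13.5%. The larger changes were falls: 654 genes fell and 103 rose by at least 1 on the log2 scale, and 122 fell and 5 rose by at least 2. The 3 AZD-2014 values lay beyond all 6 DMSO values for 570 of the higher genes (4.48% of those tested) and 1125 of the lower genes (8.85%), against 6.72% and 10% of all tested genes with such a separation in the respective direction. The count of higher genes depended on single samples. It was 417 without the first AZD-2014 replicate, 437 without the third, 502 without the second replicate of DMSO set 2 and 361 with replicate 3 of every condition left out. Testing DMSO set 1 against DMSO set 2 in the same fit called 0 genes by limma, with 310 at an unadjusted p under 0.05. AZD-2014 against DMSO had 3927 at that p. The first contrast set 3 samples against 3 and the second 3 against 6, so these counts are not on the same footing. The mitochondrial share had the same replicate order in both DMSO sets, so whether the 6 samples are independent is not known.

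The comparison with the other 57 inhibitors, which uses no DMSO sample, asked which of these changes set AZD-2014 apart from inhibitors in general. There 401 genes were higher (3.15%) and 1996 lower (15.7%). With a further scaling by the median of ratios the split was 850 higher and 1462 lower. Lower genes outnumbered higher ones either way, and the size of the imbalance depended on the scaling. Leaving out an AZD-2014 replicate left 226 to 243 higher genes, and without the second replicate 1088 were lower. Both comparisons called 1461 genes lower (11.5%) and 315 higher (2.48%). AZD-2014 had the lowest mean of the 59 groups for 9.26% of all tested genes and the highest for 1.75%. Among called genes, whose choice used the same values, it was lowest for 905 of the 1719 lower genes and highest for 134 of the 771 higher genes.

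**Figure D1:**
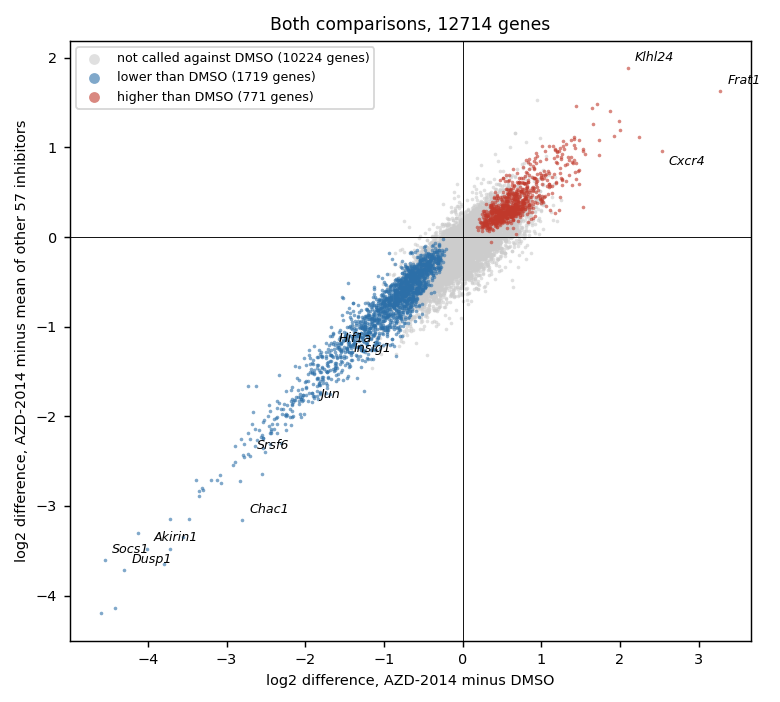
Each point is 1 of 12714 genes, with the log2 difference between AZD-2014 and DMSO on the x axis and the log2 difference between AZD-2014 and the mean of the other 57 inhibitors on the y axis, coloured by the call against DMSO. The long tail at the lower left holds Dusp1, Socs1 and Akirin1, below -3 on both axes, and the rises at the upper right reach further against DMSO (Cxcr4 at 2.53) than against the other inhibitors (0.96).

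The inhibited kinase gene Mtor had normalized values of 115, 126 and 164 with AZD-2014 and of 110, 168.5 and 309 (lowest, median and highest) with DMSO, and the log2 difference of -0.43 ± 0.21 (SE) did not pass (adjusted p = 0.150). Without the third replicate of DMSO set 1 it was -0.57 (adjusted p = 0.0423), without replicate 3 of both DMSO sets -0.61 (adjusted p = 0.0387), and with replicate 3 of every condition left out -0.76 (adjusted p = 0.0299). The scaffold genes were at 271, 317 and 348 (Rptor) and 156, 69 and 192 (Rictor) with AZD-2014, overlapping the DMSO ranges of 192 to 314 and 50 to 214. Neither passed, at log2 differences of 0.24 and -0.26, but with replicate 3 of every condition left out Rictor was lower (-0.98, adjusted p = 0.0045). Pfkp, the phosphofructokinase whose binding set the dose, ranged from 687 to 949 with AZD-2014 and from 728 to 968 with DMSO.

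Of 43 tested genes of the mTOR complexes and their regulators, 3 were higher and 4 lower, with a median log2 difference of 0.01 against -0.02 over all genes. The called shares were 6.98% and 9.3%, against 6.06% and 13.5% of all genes tested. Rhebl1, which encodes a relative of the mTOR-activating GTPase Rheb, had values of 71, 74 and 110 with AZD-2014 and of 15, 28 and 34 with DMSO (log2 difference 1.65 ± 0.27, adjusted p = 3.33e-07), so the groups did not overlap and the AZD-2014 mean was the highest of the 59. Mapkap1, a subunit of complex 2, went the other way, at 87, 131 and 125 against 173, 195.5 and 272 (-0.87 ± 0.18, adjusted p = 0.000114). Sesn2, a stress-induced inhibitor of complex 1, fell to 31, 42 and 30 from a DMSO median of 80, with the lowest DMSO value of 42 inside the AZD-2014 range (-1.13 ± 0.31, adjusted p = 0.00335, but 0.1 with replicate 3 of every condition left out). Another stress-induced inhibitor, Ddit4, was low in every sample, at most 6 with AZD-2014 and at most 14 with DMSO (adjusted p = 0.127).

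Among 24 genes for substrates and outputs of mTOR, 4 were higher and 3 lower, and without the first AZD-2014 replicate 2 and 1. Ulk1 and Atg13 encode the kinase that starts autophagy and its partner, both held inactive by complex 1. Ulk1 rose to 99, 99 and 110 from a DMSO median of 56.5 (0.85 ± 0.22, adjusted p = 0.00162). Atg13 rose to 602, 579 and 520 from a DMSO range of 307 to 408 (0.69 ± 0.10, adjusted p = 6.15e-09). Tfe3, a transcription factor of lysosome genes whose nuclear entry complex 1 prevents, fell to 1183, 1463 and 1199 from a DMSO range of 1866 to 2251 (-0.72 ± 0.09, adjusted p = 2.25e-10). Its relative Tfeb had overlapping groups, 84, 122 and 92 against 70 to 106.

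PI3-kinases lie upstream of Akt and are further targets annotated for the compound. Of 22 tested genes of PI3-kinase and insulin receptor signalling 2 were higher and 2 lower, and without replicate 3 of both DMSO sets 0 were higher and 2 lower. Leaving out 1 sample gave 1 higher in 6 of 9 cases and 4 without the first replicate of DMSO set 2, and 0 lower without the first AZD-2014 replicate or the second of DMSO set 2. Pik3ca was at 177, 93 and 143 against a DMSO range of 51 to 127 (0.81 ± 0.29, adjusted p = 0.0303). That call was lost when any of several samples was left out, with adjusted p from 0.0559 to 0.249 over those samples, the highest without the first AZD-2014 replicate. Pik3cb, Pik3cd and Pik3cg did not pass, with log2 differences of -0.20, -0.05 and 0.18, but with replicate 3 of every condition left out Pik3cb was lower (-0.68, adjusted p = 0.00924). Irs2, the insulin receptor adaptor, was at 87, 103 and 73 with AZD-2014, above all DMSO values of 19 to 52 (1.26 ± 0.38, adjusted p = 0.0105, but 0.0683 without the second AZD-2014 replicate and 0.0636 without replicate 3 of both DMSO sets).

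Cxcr4, the receptor for the chemokine Cxcl12, had values of 78, 60 and 70 with AZD-2014, while DMSO values ran from 2 to 55 with a median of 10. Its log2 difference of 2.53 ± 0.53 (adjusted p = 9.64e-05) was the largest among genes that passed the naming rule, but the adjusted p was 0.0606 when only these 9 samples were fitted. Nr1d1, the clock repressor Rev-erb alpha, rose to 89, 83 and 63 from a DMSO range of 6 to 32 (2.25 ± 0.41, adjusted p = 5.54e-06).

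Klhl24 encodes an adaptor of a ubiquitin ligase. It was at 1100, 842 and 1119 with AZD-2014 and at 129, 260.5 and 311 (lowest, median, highest) with DMSO, a rise of 2.102 ± 0.24 (adjusted p = 6.03e-12). Hbp1, a transcriptional repressor that slows entry into S phase, rose to 2088, 1317 and 1659 from a DMSO range of 252 to 767 (1.87 ± 0.32, adjusted p = 1.74e-06). Crebrf, a regulator of the stress factor Creb3 linked to nutrient storage, rose to 499, 427 and 484 from 96 to 213 (1.71 ± 0.21, adjusted p = 1.21e-10). Each of these 3 genes was also higher than under the other 57 inhibitors, by 1.89, 1.40 and 1.48, with AZD-2014 at position 4 from the top among 59 groups.

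Mmp12, the elastase of macrophages, rose to 1928, 1319 and 1565 from a DMSO range of 318 to 594 (1.92 ± 0.31, adjusted p = 3.88e-07). Plat, the tissue plasminogen activator, rose to 205, 98 and 194 from 45 to 87 (1.44 ± 0.32), the highest mean of the 59 groups. Trem1 and Gpr183, receptors that amplify inflammation and guide cells along oxysterols, rose by 1.45 and 1.46. The remaining genes among the 15 largest rises were 2410006H16Rik (1.73), Fbxl20 (1.65), Oit3 (1.55, adjusted p = 0.0526 without the first AZD-2014 replicate), Zfas1 (1.53) and Rabggtb (1.47). Frat1 and Zbtb10 rose by 3.28 and 2.00 at means under 50 and were outside the naming rule. They are named because so few genes rose by 2 or more, having been chosen after their values were seen, and the small DMSO values of 0 to 9 and 1 to 8 make both differences depend on the pseudocount. With replicate 3 of every condition left out Zbtb10 did not pass (1.32, adjusted p = 0.119).

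**Figure D2:**
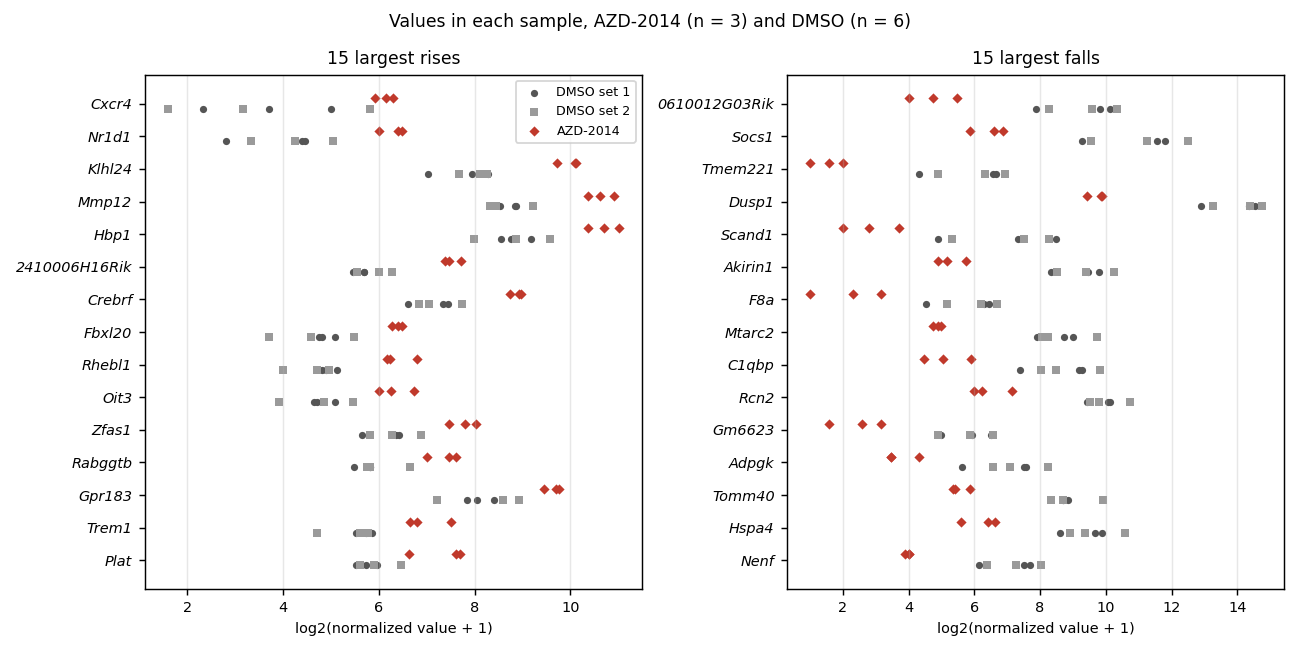
Values of the 15 largest rises and the 15 largest falls on a log2(normalized value + 1) axis, with 1 symbol per sample (red diamonds AZD-2014, circles DMSO set 1, squares DMSO set 2). In every row the 3 AZD-2014 symbols lie beyond the 6 DMSO symbols, which the naming rule required, and in the falls the DMSO symbols themselves spread widely, for Socs1 from 618 to 5735.

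FOXO factors enter the nucleus when Akt is inactive, and 9 of 25 tested FOXO-linked genes were higher and 1 lower, with a median log2 difference of 0.52 against -0.02 over all genes. Without replicate 3 of both DMSO sets, 6 were higher and 2 lower (median 0.36), and with replicate 3 of every condition left out 5 and 3. Leaving out 1 sample gave 6 higher (without the third AZD-2014 replicate) to 11, and medians from 0.29 (without the third replicate of DMSO set 1) to 0.68. Txnip, an inhibitor of glucose uptake and thioredoxin, rose to 1598, 1175 and 1382 from a DMSO range of 352 to 749 (1.38 ± 0.22, adjusted p = 2.13e-07). Cdkn1b, the cell cycle inhibitor p27, rose to 544, 462 and 456 from 158 to 303 (1.21 ± 0.19, adjusted p = 2.17e-07) and was highest under AZD-2014 of all 59 groups. Cited2, a coactivator-binding protein that limits Hif1a, rose by 0.85 and Gabarapl1, an autophagosome protein, by 0.74. Cpeb4, which binds cytoplasmic polyadenylation elements, was the gene that fell (-0.99, adjusted p = 0.00235), and without the second AZD-2014 replicate its adjusted p was 0.0589, and 0.185 with these 9 samples fitted alone.

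The motif GTAAACA, the core bound by FOXO proteins, was searched on both strands in windows from 250 bases before to 50 bases after the RefSeq start of transcription on GRCm38.p6. It was present in 6.26% of 463 higher genes with a window, in 3.46% of 1330 lower genes, in 3.20% of 9131 tested genes and in 4.05% of all 27025 windows in the reference table. It was present before the starts of the rising genes Hbp1 (chr12:31950246-31950495, minus strand) and Txnip (chr3:96557707-96557956, plus strand), and the 250 bases before their starts are given 5′ to 3′ with the motif in capitals. Of the FOXO-linked genes with a window, 2 of 22 held the motif, Txnip among them. A match in such a window is a description of the sequence only.
Hbp1: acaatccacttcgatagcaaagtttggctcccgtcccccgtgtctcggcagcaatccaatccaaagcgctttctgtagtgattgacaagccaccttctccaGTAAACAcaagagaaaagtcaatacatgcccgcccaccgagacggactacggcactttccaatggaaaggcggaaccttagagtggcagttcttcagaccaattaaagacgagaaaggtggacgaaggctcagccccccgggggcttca
Txnip: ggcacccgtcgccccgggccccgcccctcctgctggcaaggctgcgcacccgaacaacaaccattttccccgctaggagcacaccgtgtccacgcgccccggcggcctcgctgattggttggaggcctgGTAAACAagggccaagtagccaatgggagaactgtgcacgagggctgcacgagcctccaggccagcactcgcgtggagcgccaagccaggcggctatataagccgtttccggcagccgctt

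Ribosomal protein transcripts moved as a body. Of 78 tested, 61 were higher and 0 lower, with 78 of 78 log2 differences above 0 and a median of 0.60. Without replicate 3 of both DMSO sets 58 were higher, and with replicate 3 of every condition left out 37 were. Leaving out 1 sample gave 43 to 63. Against the other 57 inhibitors 25 were higher and 0 lower, with a median of 0.30. Their summed share of all normalized values was 3.45%, 3.56% and 3.52% in the AZD-2014 samples and between 2.08% and 2.49% in the DMSO samples. The exact permutation test of that share gave p = 0.0238, the smallest that 84 splits allow two-sided, and 0.286 after adjustment over the 12 single values tested.

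The individual ribosomal genes named here were picked for a small p and rose by 0.45 to 0.56, below the list median of 0.60. Rpl10a was at 4187, 4599 and 4683 with AZD-2014 and between 2990 and 3626 with DMSO (0.45 ± 0.07, adjusted p = 2.31e-07). Rps9 was at 10470, 10055 and 11031 against 6632 to 7706 (0.56 ± 0.10), the highest mean of the 59 groups. Rpl27a, Rpl28 and Rps26 rose by 0.56, 0.52 and 0.55. Many of these genes have near-identical processed copies in the genome, with which they share reads, and the value of any one gene is uncertain to that extent.

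Host genes of small nucleolar RNAs carry the same kind of start sequence, and 7 of 18 tested were higher and 0 lower, with a median of 0.63. With replicate 3 of every condition left out 4 were higher. Snhg6 rose to 128, 138 and 135 from a DMSO range of 46 to 74 (1.20 ± 0.20, adjusted p = 5.03e-07). Snhg4 rose to 53, 52 and 56 from 22 to 33 (1.01 ± 0.22). Gas5 was at 298, 131 and 224 against a DMSO median of 64 and a highest value of 173, so its groups overlapped (1.42 ± 0.39, adjusted p = 0.00437, and 0.0781 without the first AZD-2014 replicate). Zfas1, among the largest rises, lies opposite Znfx1 on the other strand, and the libraries do not keep strand. The same holds for Gas5 with Zbtb37, Hbp1 with Cog5, Nr1d1 with Thra, Txnip with Gm15441 and C1qbp with Rpain, which overlap in the genome. Of the 151 named genes 23 overlap another tested gene, also Scand1, Mtarc2, Atf5, Gpr183, Ccna2, Eif5b, Srrm2, Nfkb2 and Tnfsf9. Rptor, Pfkp, Txnrd1, Npc1 and Mapkap1 do so too, and Mapkap1 overlaps Gm13408 on its own strand.

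Of 52 translation factors 10 were higher (19.2%) and 7 lower (13.5%), with a median of -0.01. Leaving out 1 sample gave 4 higher (without the second replicate of DMSO set 2) to 11, with 5 without the first and without the third AZD-2014 replicate, and 5 to 9 lower. Of all genes tested 6.06% were higher and 13.5% lower, so only the higher share lay above that of all genes. The members with the smallest p, which are those named here, were falls. Among them Etf1, the release factor, was at 712, 789 and 811 against 1280 to 1832 (-1.004 ± 0.12, adjusted p = 2.59e-11). Eif5, which acts in start codon selection, was at 641, 686 and 1041 against 2002 to 2909 (-1.59 ± 0.22), and Eif5b and Eif2b5 fell by 0.85 and 1.25 on the log2 scale. Of 69 genes of ribosome biogenesis and RNA polymerase I, 2 were higher and 9 lower, but without the first AZD-2014 replicate 2 were lower and without the second 3, with a median of 0.01 without the first against -0.18. Npm1, the nucleolar chaperone, rose by 0.66 (adjusted p = 0.000201), and Utp18, a component of the machinery that processes small subunit RNA, fell by 1.41 (adjusted p = 2.66e-06).

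**Figure D3:**
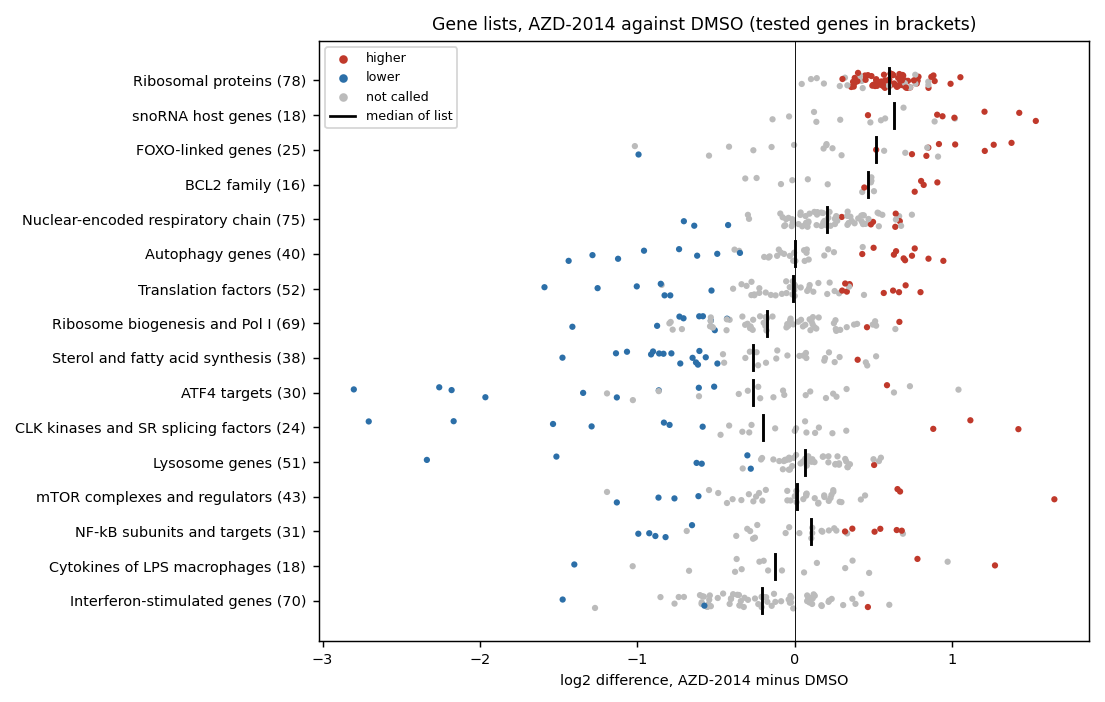
Log2 differences between AZD-2014 and DMSO for the tested members of 16 gene lists, 1 point per gene, coloured by the call (red higher, blue lower, grey not called) with the list median as a black bar. Ribosomal proteins all lie above 0, around a median of 0.60, and the sterol and ATF4 lists have medians of -0.26 and -0.27 with a tail of falls.

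Synthesis of sterols and fatty acids is switched on by SREBP factors, which complex 1 promotes. Of 38 tested genes 15 were lower and 1 higher, with a median of -0.26, and without replicate 3 of both DMSO sets 14 were lower. Leaving out 1 sample gave 11 to 15. Insig1, the sensor that retains SREBP in the endoplasmic reticulum and is itself an SREBP target, fell to 627, 560 and 628 from a DMSO range of 1411 to 1952 (-1.48 ± 0.18, adjusted p = 4.90e-11). Hmgcs1, an early enzyme of the mevalonate pathway, fell to 1265, 1125 and 1156 from 1604 to 2310 (-0.73 ± 0.13, adjusted p = 2.84e-06). The later enzymes Cyp51, Sc5d and Hsd17b7 fell by 0.78, 0.83 and 0.86 on the log2 scale.

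ATF4 drives amino acid synthesis and transport and is itself raised by complex 1. Of 30 tested ATF4 targets 9 were lower and 1 higher, and 12 were lower than under the other 57 inhibitors. Leaving out 1 sample gave 6 lower (without the first AZD-2014 replicate) to 11. Atf4 fell to 986, 1126 and 1235 from a DMSO range of 1293 to 1753 (-0.51 ± 0.09, adjusted p = 5.48e-06), the lowest mean of the 59 groups. Slc1a5, the glutamine transporter, fell to 88, 100 and 188 from 403 to 1019 (-2.26 ± 0.32, adjusted p = 6.75e-09). Gpt2, a mitochondrial transaminase, fell by 2.18 and the related factor gene Atf5 by 1.97 on the log2 scale. Chac1, which degrades glutathione, was listed at 0, 1 and 0 with AZD-2014 and at 5 to 14 with DMSO (-2.80 ± 0.47 on the log2(value + 1) scale). Asns, the asparagine synthetase gene, did not pass, at 224, 237 and 327 against 217 to 442.

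Of 19 tRNA synthetase genes, many of which ATF4 also drives, 2 were lower and 1 higher. These were 10.5% and 5.26%, against 13.5% and 6.06% of all genes tested. Gars fell to 234, 207 and 372 from a DMSO range of 638 to 1610 (-1.78 ± 0.27, adjusted p = 4.18e-08). Aars fell by 0.67 and Qars rose by 0.40 (adjusted p = 0.0613 with these 9 samples fitted alone).

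The promoter windows of a member of each list are shown for the motif named after its regulator. The ATF4 element TGATGCAA was in 6 of the 26 ATF4 targets with a window, against 0.767% of tested genes. Of the ATF4 targets named above, only Chac1 was among these 6. The sterol element TCACNCCAC was in 1 of 29 sterol and fatty acid genes, against 1.31% of tested genes. In the 1330 genes lower with AZD-2014 that had a window, the shares were 0.902% and 1.35%. The 250 bases before the start of Chac1 (chr2:119350992-119351241, plus strand, GRCm38.p6) hold the ATF4 element on the opposite strand, and those of Hmgcs1 (chr13:119690101-119690350, plus strand) hold the sterol element, each in capitals.
Chac1: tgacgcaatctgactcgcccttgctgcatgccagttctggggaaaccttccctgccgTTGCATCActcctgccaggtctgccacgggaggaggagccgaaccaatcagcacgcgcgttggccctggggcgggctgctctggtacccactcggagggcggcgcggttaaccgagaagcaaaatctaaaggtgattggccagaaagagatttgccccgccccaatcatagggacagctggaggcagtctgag
Hmgcs1: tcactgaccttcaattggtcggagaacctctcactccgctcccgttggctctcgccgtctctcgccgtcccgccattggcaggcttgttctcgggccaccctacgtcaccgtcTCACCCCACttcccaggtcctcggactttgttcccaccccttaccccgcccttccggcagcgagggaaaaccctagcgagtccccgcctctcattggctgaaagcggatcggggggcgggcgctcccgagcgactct

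Of 25 glycolytic genes 2 were higher (8%) and 1 lower (4%). Higher ones numbered 0 without the first or the third AZD-2014 replicate, against either DMSO set alone and with these 9 samples fitted alone. Of all genes tested 6.06% were higher and 13.5% lower. Hif1a, the factor that raises glycolysis in LPS-treated macrophages, fell to 480, 422 and 579 from a DMSO range of 1196 to 2501 (-1.67 ± 0.21, adjusted p = 1.03e-10), the lowest mean of the 59 groups. Of 17 hypoxia and HIF target genes 5 were higher and 2 lower, with 2 higher without the first and without the third AZD-2014 replicate and 3 without the second replicate of DMSO set 2. Pdk1, the kinase that keeps pyruvate out of mitochondria, fell to 134, 113 and 174 from 446 to 1056 (-2.03 ± 0.26, adjusted p = 1.59e-10). Slc16a1, a lactate transporter, fell by 1.501 on the log2 scale (adjusted p = 2.11e-06). Myc, a driver of growth, did not pass (-0.03 ± 0.22, adjusted p = 0.955).

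Of 27 genes of the pentose phosphate pathway and nucleotide synthesis 1 was higher and 2 were lower, among them Pgls, the second enzyme of the pathway (-1.18, adjusted p = 0.000172). Of 75 nuclear genes of the respiratory chain 6 were higher and 3 lower, with 60 of the 75 differences above 0 and a median of 0.20. Without replicate 3 of both DMSO sets 1 was higher and 1 lower, and 0 were higher without the first or the third AZD-2014 replicate, with 1 without the second replicate of DMSO set 2. None of 13 mitochondrially encoded transcripts passed, at shares of 0.435% to 0.815% of all values with AZD-2014 and 0.301% to 1.05% with DMSO. Of 10 genes of mitochondrial biogenesis 1 was higher and 2 were lower, including the coactivator gene Pprc1 at 73, 73 and 93 against 219 to 347 (-1.68 ± 0.24, adjusted p = 1.38e-08).

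Of the autophagy genes, 10 of 40 were higher and 8 lower, with a median log2 difference of -0.000919. The rises included parts of the lipid kinase complex that starts the autophagosome. Atg14 was at 180, 273 and 266 against 101 to 144 (0.94 ± 0.17, adjusted p = 6.23e-06) and Pik3c3 at 217, 193 and 237 against 115 to 149 (0.70 ± 0.13, adjusted p = 4.93e-06). In the conjugation system, Atg12 rose by 0.63 whereas Atg3, the enzyme that attaches lipid to the Atg8 proteins, fell to 124, 88 and 98 from 215 to 341 (-1.29 ± 0.18, adjusted p = 4.91e-09).

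Of 51 lysosome genes 1 was higher (1.96%) and 6 were lower (11.8%), against 6.06% and 13.5% of all genes tested. Leaving out the second AZD-2014 replicate or the second replicate of DMSO set 2 gave 3 lower. Naglu, a lysosomal enzyme for heparan sulfate, fell to 321, 291 and 334 from a DMSO range of 1212 to 2812 (-2.34 ± 0.25, adjusted p = 6.71e-13). Mcoln1, the lysosomal calcium channel, fell to 105, 83 and 110 from 229 to 445 (-1.51 ± 0.19, adjusted p = 2.25e-10).

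The falls were led by Dusp1, the phosphatase that switches off p38 and JNK. Its values were 927, 683 and 952 with AZD-2014, 23940, 20808 and 7541 in DMSO set 1 and 21239, 27409 and 9752 in DMSO set 2. The log2 difference was -4.30 ± 0.40 (adjusted p = 3.50e-16), and every AZD-2014 value lay far below the lowest DMSO value. Within DMSO the third replicate of each set was the lowest. Socs1, which blocks JAK signalling downstream of cytokine receptors, showed the same placing. It was at 96, 57 and 115 with AZD-2014 and at 3582, 2986, 618, 2451, 5735 and 754 in the DMSO samples in that order (-4.55 ± 0.55, adjusted p = 4.24e-11).

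Without replicate 3 of both DMSO sets the whole comparison called 1959 genes lower and 665 higher. The other leading falls were of varied function. 0610012G03Rik, an uncharacterised gene, fell to 26, 15 and 43 from a DMSO range of 236 to 1304 (-4.60 ± 0.51, adjusted p = 1.34e-12). Akirin1, a nuclear protein related to a cofactor of inflammatory gene activation, fell to 35, 29 and 53 from 320 to 1212 (-4.01 ± 0.38, adjusted p = 9.94e-16). Several encode proteins of mitochondria. Mtarc2, a mitochondrial reductase, fell to 31, 26 and 29 from 239 to 842 (-3.72 ± 0.37). Tomm40, the channel of the outer membrane translocase, fell to 40, 42 and 57 from 318 to 960 (-3.32 ± 0.39). C1qbp, a matrix protein, fell by 3.56 on the log2 scale. The chaperone gene Hspa4 fell to 85, 47 and 97 from 391 to 1548 (-3.30 ± 0.37), and Rcn2, a calcium-binding protein of the endoplasmic reticulum, to 74, 63 and 142 from 690 to 1696 (-3.48 ± 0.30). Tmem221 (-4.42), Scand1 (-4.13), F8a (-3.72), Gm6623 (-3.35), Adpgk (-3.35) and Nenf (-3.20) completed the 15 largest, at AZD-2014 values of 1 to 19. Sdhaf1, an assembly factor of respiratory complex II, fell to 1, 6 and 0 from 16 to 53 and was among the 10 genes furthest below the other inhibitors (-3.64).

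The 122 genes that fell by 2 or more were chosen on their AZD-2014 values, so the counts that follow describe the set. Of these, 112 had their lowest mean of the 59 groups under AZD-2014, and 122 of 122 were also lower than under the other 57 inhibitors. In 102 of the 112, BMS-911543 held position 2 or 3 from the bottom, and in 78 afatinib did. The median log2 difference from DMSO over the 122 genes was -2.39 with AZD-2014, -1.94 with BMS-911543 and -1.51 with afatinib. These 3 comparisons share the DMSO samples, and BMS-911543 and afatinib were developed against JAK2 and the EGF receptor family.

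**Figure D4:**
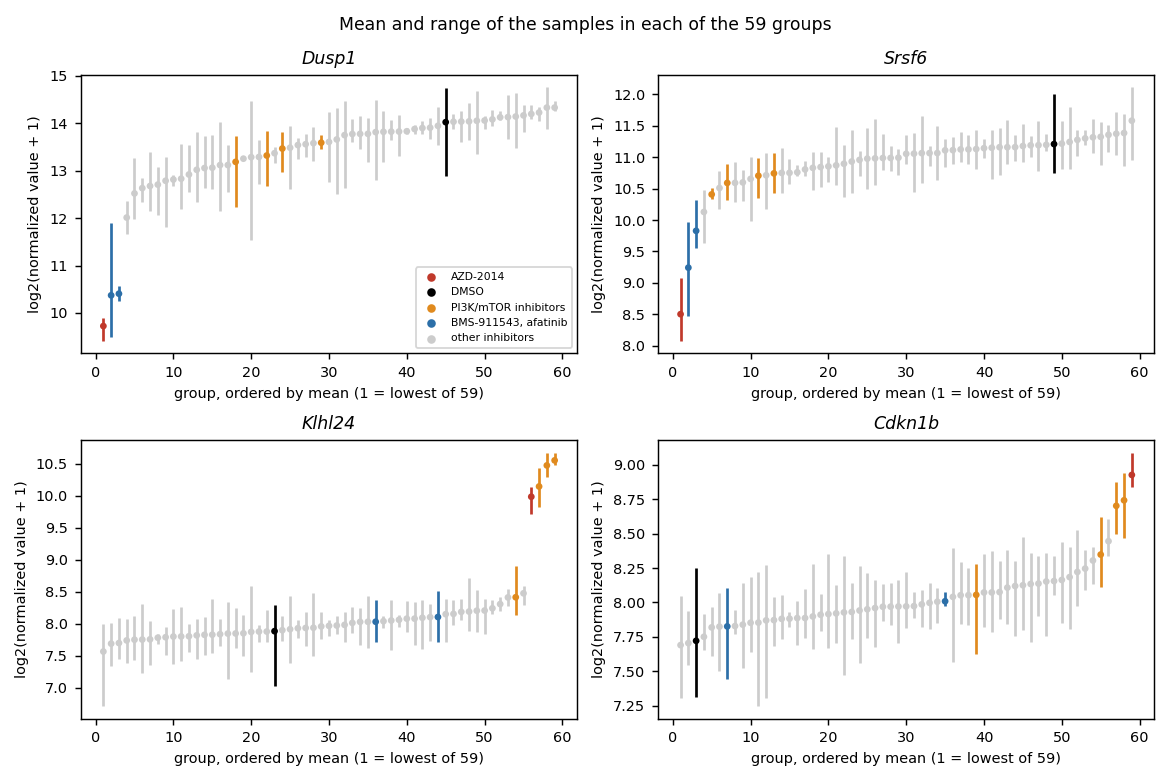
Levels of 4 genes in all 59 groups, ordered by mean from left to right, with the mean as a dot and the range of the samples as a line on a log2(normalized value + 1) axis. AZD-2014 (red) is lowest for Dusp1 and Srsf6, with BMS-911543 and afatinib (blue) next. For Klhl24 and Cdkn1b AZD-2014 lies near or at the top beside PI3K and mTOR inhibitors (orange). For Cdkn1b midostaurin lies above BGT226, and apitolisib is at position 39 from the lowest.

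SR proteins and CLK kinases control splicing. They were listed with other genes such as Ttc14 and Dyrk1b, and of the 24 genes 7 were lower and 3 higher. Without the first AZD-2014 replicate 1 was higher. Srsf6 fell to 326, 270 and 537 from a DMSO range of 1713 to 4113 (-2.71 ± 0.26, adjusted p = 1.13e-15). Srsf1 fell to 83, 76 and 141 from 191 to 424 (-1.54 ± 0.21, adjusted p = 2.62e-09). Ttc14 fell by 2.17 and the scaffold gene Srrm2 by 0.80 on the log2 scale, while Dyrk1b, a kinase of quiescence, rose to 115, 150 and 111 from 28 to 94 (1.42 ± 0.27, adjusted p = 2.20e-05). Among 14 factors of nonsense-mediated decay, the pathway that removes transcripts with early stop codons, 1 was higher and 3 were lower (1 lower without the first AZD-2014 replicate, 5 without the third replicate of DMSO set 1).

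Of 26 immediate-early and MAPK feedback genes 5 were higher and 4 lower, with 2 and 3 without the first AZD-2014 replicate and 3 and 6 without the third replicate of DMSO set 1. Jun fell to 447, 402 and 710 from a DMSO range of 1187 to 3141 (-1.91 ± 0.26, adjusted p = 1.75e-09). Dusp6, the phosphatase of ERK, rose to 80, 84 and 70 from 24 to 50 (1.20 ± 0.26, adjusted p = 0.00014), opposite to Dusp1, and Ier5 rose by 0.85 (adjusted p = 0.00110).

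Of 18 cytokines of LPS-treated macrophages 2 were higher (11.1%) and 1 lower (5.56%), against 6.06% and 13.5% of all genes tested. Tnf was at 11290, 5976 and 9101 with AZD-2014 and between 6668 and 8932 with DMSO (0.14 ± 0.31, adjusted p = 0.804). Il1b, Il10 and Il12b overlapped DMSO as well, with log2 differences of 0.37, -0.23 and 0.47. Il6 was at 449, 139 and 250 against 337 to 757, a difference of -1.03 ± 0.43 that did not pass (adjusted p = 0.0824). It was -1.45 without the first AZD-2014 replicate (adjusted p = 0.0355) and -1.31 without replicate 3 of both DMSO sets (0.0324).

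Ifnb1 was at 287, 131 and 265 against a DMSO range of 75 to 262, and 0.97 ± 0.40 did not pass either (adjusted p = 0.0737, but 0.0188 without the first replicate of DMSO set 2 and 0.0347 without the second AZD-2014 replicate). Csf1, the growth factor of macrophages, fell to 419, 428 and 494 from 812 to 2156 (-1.40 ± 0.26, adjusted p = 6.02e-06), the lowest mean of the 59 groups. Tnfsf9, a costimulatory ligand of the TNF family, rose to 7564, 4633 and 6444 from 1884 to 4131 (1.27 ± 0.31, adjusted p = 0.00117, but 0.0557 with replicate 3 of every condition left out). Of 18 chemokines 2 were higher and 1 lower, with the neutrophil chemokine gene Cxcl1 at 1301, 1002 and 1409 against 622 to 786 (0.86 ± 0.19, adjusted p = 0.000299).

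Interferon-stimulated genes, which report the autocrine action of interferon beta, had 1 of 70 higher and 2 lower and a median of -0.21. The called shares were 1.43% and 2.86%, against 6.06% and 13.5% of all genes tested. Without replicate 3 of both DMSO sets 0 were higher and 12 lower, with a median of -0.45. Without the third replicate of DMSO set 1 alone 9 were lower, and the median ran from -0.46 without the first AZD-2014 replicate to -0.01 without the second. Cmpk2, a mitochondrial nucleotide kinase, fell to 6056, 4520 and 6494 from 10614 to 36530 (-1.47 ± 0.39, adjusted p = 0.00232). Tdrd7 fell by 0.57 and Irf9 rose by 0.46, calls that were lost without the second AZD-2014 replicate (Tdrd7, adjusted p = 0.0825) and without the first (Irf9, adjusted p = 0.157), and also without the second replicate of DMSO set 2 (0.0789 and 0.0643) and, for Irf9, without the third AZD-2014 replicate (0.0766).

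NF-kB subunits and targets had 6 of 31 higher and 5 lower, 4 and 6 without replicate 3 of both DMSO sets, and 2 or 3 higher without the first or the third AZD-2014 replicate. Cd83 and Icam1, surface proteins of activated cells, rose by 0.65 (adjusted p = 5.76e-07) and 0.54 (6.05e-05). Icam1 was at 36438, 32251 and 34511 with AZD-2014 and at 21914 to 25826 with DMSO. Tnfaip3, the deubiquitinase A20 that ends NF-kB signalling, fell to 3524, 2300 and 2840 from 3424 to 9371 (-0.99 ± 0.17, adjusted p = 1.88e-06), with 1 AZD-2014 value inside the DMSO range. Nfkb2 and Marcksl1 fell by 0.82 and 0.89 on the log2 scale. Of 26 genes of the Toll-like receptor pathway 2 were higher and 2 lower, 7.69% each, against 6.06% and 13.5% of all genes tested. Traf6, the ubiquitin ligase of the pathway, fell by 1.03 (adjusted p = 3.81e-06), and the kinase gene Irak2 rose by 0.40. The adaptor gene Ticam2 rose by 0.52 (adjusted p = 0.00568, but 0.0513 against DMSO set 1 alone and 0.0543 with these 9 samples fitted alone).

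Of 16 BCL2 family genes 5 were higher and 0 lower, with a median of 0.46. That count was 1 without the third AZD-2014 replicate, 2 without the second, 3 without the first and 2 without the second replicate of DMSO set 2. Bcl2l11, the death activator Bim, was at 8892, 9019 and 9661 against 5795 to 7159 (0.44 ± 0.08, adjusted p = 6.82e-06). Of 16 p53 targets 3 were higher and 5 lower, with 1 higher without the second or the third AZD-2014 replicate or without the second replicate of DMSO set 2. Btg2, an antiproliferative gene, rose by 1.24 (adjusted p = 0.000126), whereas Aen and Zmat3 fell by 0.97 and 1.26 on the log2 scale. Of 31 cell cycle genes 2 were higher (6.45%) and 2 lower (6.45%), and 5 were lower without the third replicate of DMSO set 1, with Ccna2, cyclin A2, at 833, 918 and 1338 against 1598 to 3475 (-1.09 ± 0.25, adjusted p = 0.000345). Of 15 NRF2 targets 0 were higher and 3 lower (1 without the first AZD-2014 replicate), led by Txnrd1 (-0.65, adjusted p = 3.08e-08). Of 9 LXR targets 2 were higher and 0 lower, with 0 higher without the first or the third AZD-2014 replicate or the third of DMSO set 2.

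The panel held 4 other compounds that block PI3K and mTOR kinases, omipalisib, BGT226, PF-04691502 and apitolisib. Their concentrations differed from each other and from that of AZD-2014, all share the DMSO samples, and the values are set side by side without a comparison. For Klhl24 the log2 differences from DMSO were 2.102 with AZD-2014, 2.59 with omipalisib, 2.67 with BGT226, 2.26 with PF-04691502 and 0.53 with apitolisib. For Hbp1 they were 1.87, 2.49, 2.49, 2.51 and 1.36 in the same order, and for Irs2 1.26, 2.287, 2.74, 1.74 and 1.00. For the sterol gene Hmgcs1 they were -0.73, -1.997, -1.22, -0.95 and -0.20.

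Ribosomal protein medians were 0.60, 0.57, 0.39, 0.55 and 0.49, and snoRNA host gene medians 0.63, 1.09, 2.24, 0.75 and 0.48. For Atf4 the differences were -0.51, 1.93, 2.67, 0.01 and 0.12. For Dusp1 they were -4.30, -0.70, -0.56, -0.43 and -0.84. The median over the 122 genes that fell by 2 or more with AZD-2014 was -2.39, -0.71, -0.11, -0.41 and -0.69, and the last 4 values come from a set chosen on AZD-2014.

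**Figure D5:**
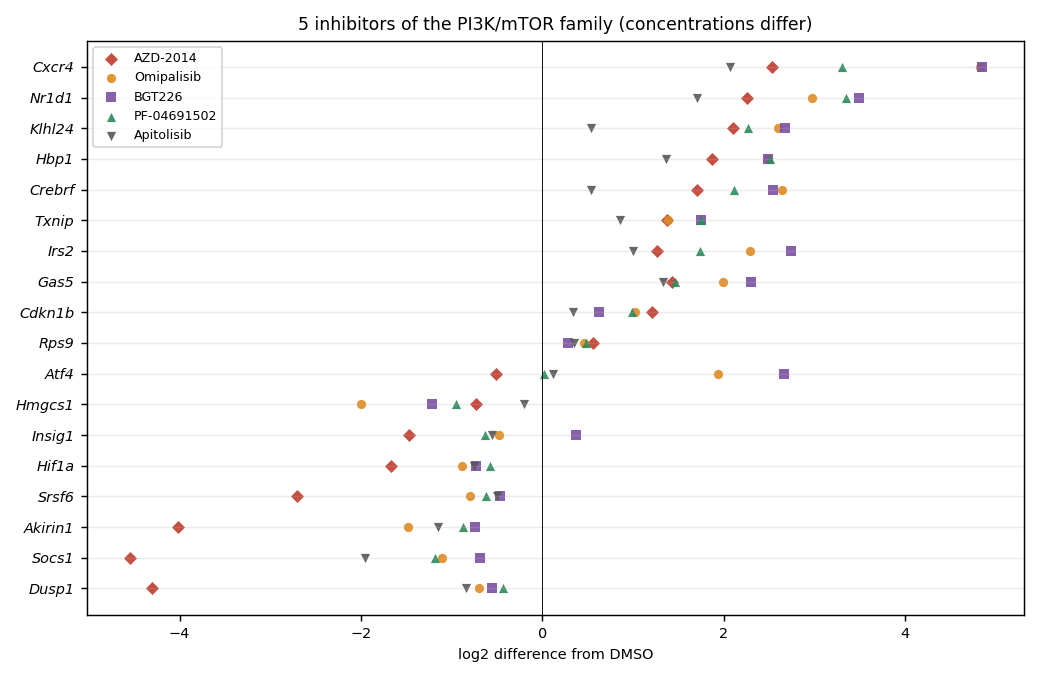
Log2 differences from DMSO for 18 genes under AZD-2014 (red diamonds) and 4 other PI3K and mTOR inhibitors, whose concentrations differ. For Rps9 the 5 symbols lie between 0.28 and 0.56. For Hif1a, Srsf6, Akirin1, Socs1 and Dusp1 the AZD-2014 symbol is the leftmost.

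The genes called in each direction differed in length and type. The median transcript length was 1557 bases for higher genes, 3344 for lower genes and 2796 for genes not called. The median span in the genome was 6022, 25495 and 16936 bases, and the median number of exons 5, 10 and 8. The 122 genes that fell by 2 or more had a median of 2474.5 bases. Median GC content was 51%, 49.1% and 49.3%. Across the 12714 genes, Spearman's rho between the log2 difference from DMSO and transcript length was -0.32 as a description, since genes share the libraries and are not independent. Pseudogenes made up 25% of the higher genes, 4.71% of the lower genes and 11.5% of genes not called, and copies of ribosomal protein genes share reads with their parents. The part of length and of shared reads in the calls was not tested.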

How the data were processed

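RNA was measured in macrophages treated with AZD-2014 or DMSO before LPS. Per the study's methods, polyadenylated RNA was amplified by SMART-seq2, which does not keep strand, and reads were aligned to mm10 with TopHat2 2.1.1. Reads in blacklisted regions were removed with bedtools 2.29.2, and counts over curated RefSeq genes were made with R packages. The authors then scaled each sample on genes of constant level, and they ran DESeq2 without its own normalization in R 3.6.2. The deposited table holds these scaled counts rounded to whole numbers, treated here as a score and called normalized values, so no count model was used. Groups came from the sample labels.

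Genes with a mean of 10 or more over the 180 samples were tested with limma 3.58.1 (variance trend, R 4.3.3) on log2(normalized value + 1), with all 59 groups in 1 fit and 121 residual degrees of freedom. Differences are on that scale, which understates the change of low genes. P-values were adjusted by Benjamini-Hochberg over 12714 genes and called under 0.05. The same fit compared AZD-2014 with the equally weighted mean of the other 57 inhibitors. Single values per sample were compared by two-sided exact permutation over 84 splits. The fit was tested on simulated data with known changes.

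Depth, here the reads counted over the genes of the table and not all reads sequenced, was estimated from the values. The estimate used which whole numbers the scaling leaves empty or overfilled. An estimate was accepted where the best scale scored at least 1.1 times the next. That threshold was lowered from 1.3 after these samples had been seen, because 7 of the 9 had an estimate at 1.3. In 25 simulated samples neither threshold accepted an estimate wrong by over 1%.

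The genes and the 39 gene lists were chosen with earlier results of these data known. Genes were named by rule: the 15 largest rises and falls that were called, did not overlap and had a mean of 50 or more in the higher group, up to 5 members of each list with the smallest p, a fixed set of pathway and cytokine genes, and the 10 called genes furthest from the other inhibitors. The rule names 215 genes, of which the text describes a part chosen after their values were seen, and 18 genes whose calls changed with the processing were left out of the description but are counted in the closing section. Alternatives changed the pseudocount, filter, scaling, variance trend, replicate block, DMSO set, samples in the fit and fold threshold, and left out each sample. Leaving out the third replicates was added after seeing the data. Promoter sequences are RefSeq, GRCm38.p6. Some results of the named genes are not reported here.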

Additional observations from a re-analysis of the deposited data

Results flagged for a closer look

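Among the 151 named genes examined, 16 had 1 DMSO sample further from the other 5 than Dixon's 95% critical value for 6 samples allows, where chance flags about 1 in 20. The second replicate of DMSO set 2 was the highest for Tomm40 (960), Gpt2 (138), Mcoln1 (445), Pdk1 (1056) and Txnrd1 (2886), and the lowest for Trem1 (25) and Rps6 (334). The third replicate of DMSO set 1 was the lowest for Rptor (192), Rictor (50), Pik3cg (321), Bcl2l11 (5795) and Npc1 (398). The first replicate of DMSO set 2 was the highest for Rabggtb (99) and the lowest for Sesn2 (42), Cyp51 (999) and Zmat3 (47).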

How the results depend on the processing

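The count of genes higher than with DMSO was 1500 with a replicate block and the mitochondrial share, 405 against DMSO set 1 alone, 376 with the 9 samples fitted alone, 103 with a log2 change of 1 or more, and 361 to 929 with samples left out. The count of lower genes was 1116 against set 1 alone, 961 with the 9 samples alone, 654 with a log2 change of 1 or more, and 1227 to 1959 with samples left out. Against the other 57 inhibitors, 850 genes were higher with the median of ratios, 613 with a replicate block, 968 with the block and the mitochondrial share, 29 with a log2 change of 1 or more and 226 to 243 with samples left out. There 517 were lower with a log2 change of 1 or more and 1088 to 1851 with samples left out. The cause of these shifts was not tested beyond the fewer samples or stricter threshold that some settings have by construction.

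The labels tie replicate numbers to no shared animal or day. Same-numbered deviations correlated by 0.38 and 0.57 for number 1 but by -0.14 to 0.26 for numbers 2 and 3, and not every sample correlated best with its own number, so the samples were not treated as paired. The mitochondrial share had the same replicate order in AZD-2014 and both DMSO sets. The replicate block gave 1124 higher and 2238 lower genes against DMSO, and called Ifnb1 (adjusted p = 0.033, and 0.00351 with the mitochondrial share) and Il6 (0.0473 and 0.0173). Mtor passed with the block and the share (0.0358), and Ifnb1 with the median of ratios (0.0481). Over the 151 named genes, which include the 18 not described, 3197 of 3307 repeated values kept their side of the threshold. Of the rest, 89 lost their call and 21 gained one, and 0 values called in either fit reversed direction. A change of sign between values called in neither fit was counted as kept. Depth is estimated and not stated in the table, and values under about 10 rest on few reads.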
